A study of Mus musculus with 22 samples.

Results

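The 9 genes described here encode the salt transport machinery of the loop of Henle and the distal nephron: Slc12a1, Slc12a3, Umod, Bsnd, Scnn1a, Scnn1b, Scnn1g, Wnk1 and Wnk4. They were chosen by name, as the entries of the count table that carry these symbols. All 9 were among the 32858 genes of the table, and all 9 were among the 17131 genes with enough counts to be tested. Kidney RNA came from 22 male C57Bl6/J mice aged 8 to 10 weeks, 1 library per mouse. The vehicle group (5 mice) received the carrier alone. The KW6002 group (6 mice) received KW6002 (istradefylline, a blocker of an adenosine receptor) at 3 mg/kg daily from day -5 to day 7. The cisplatin group (5 mice) received 6 daily injections of the platinum drug cisplatin at 3 mg/kg, and the co-treated group (6 mice) received both drugs. Kidneys of the cisplatin-treated mice were taken 72 hours after the last cisplatin injection. Totals ran from 26471762 to 40510754 counts per library, and the smallest count of any of the 9 genes in any library was 886, for Bsnd.

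Salt that leaves the proximal tubule is recovered further along the nephron by a series of apical entry steps. The thick ascending limb takes up sodium, potassium and chloride through the cotransporter NKCC2, the distal convoluted tubule takes up sodium and chloride through NCC, and the connecting tubule and collecting duct take up sodium through the epithelial channel ENaC. Chloride leaves the cells on the blood side through channels, and WNK kinases set the activity of the cotransporters through the kinases SPAK and OSR1.

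On mouse build GRCm38, Slc12a1 (ENSMUSG00000027202) lies at chr2:125152505-125230002 and Slc12a3 (ENSMUSG00000031766) at chr8:94329201-94366214. Umod (ENSMUSG00000030963) lies at chr7:119462711-119479282, and Bsnd (ENSMUSG00000025418) at chr4:106483456-106492283. Scnn1b (ENSMUSG00000030873) at chr7:121865038-121918514 and Scnn1g (ENSMUSG00000000216) at chr7:121734479-121768475 are neighbours on the plus strand, while Scnn1a (ENSMUSG00000030340) lies at chr6:125320659-125344943. Wnk1 (ENSMUSG00000045962) lies at chr6:119923969-120038672 and Wnk4 (ENSMUSG00000035112) at chr11:101260567-101277409. On the opposite strand, Scnn1b overlaps the coding gene Cog7, Slc12a1, Umod and Wnk4 each overlap an antisense gene, and Wnk1 overlaps a pseudogene. The strand setting of the counting is not known here, so how reads in these overlaps were assigned is not known either.

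Levels are given as CPM, the count scaled to a common library total after TMM normalisation, and mean values with the SD between mice. Log2 fold changes, their standard errors and adjusted p-values come from 1 edgeR quasi-likelihood fit to all 22 libraries, with Benjamini-Hochberg adjustment over the 17131 genes tested. A gene was read as changed at an adjusted p below 0.05. In these whole-kidney samples, fewer cells of a type and less RNA per cell cannot be told apart.

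In vehicle kidneys the members differed widely in level once divided by the length of their annotated exons. Umod stood at 1640 ± 260 CPM per kb (SD, n = 5), Slc12a1 at 277 ± 118, and Slc12a3 at 144 ± 2.2. Wnk4 followed at 52.7 ± 6.08 CPM per kb, Scnn1a at 42.1 ± 5.23, Wnk1 at 27.7 ± 3.74 and Bsnd at 26 ± 4.26. Scnn1b, at 21.7 ± 0.96 CPM per kb, and Scnn1g, at 15.5 ± 1.44, were the lowest. In this order, neighbours whose SDs overlapped were Wnk4 and Scnn1a, Wnk1 and Bsnd, and Bsnd and Scnn1b. The length joins the exons of all annotated forms, 5763 bases for Slc12a1, 11119 for Slc12a3 and 22825 for Wnk1, so the order depends on it. Before division, Slc12a1 and Slc12a3 both had a vehicle mean of 1596.7 CPM. Wnk1, at 632 CPM, then stood above Scnn1a, at 174 CPM.

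Cisplatin lowered 7 of the 9 members and raised 1, against 35.9% of all tested genes lower and 34.6% higher in the same comparison. The raised member, Scnn1a, was not called with the replicate block (mice of the same replicate number, adjusted p = 0.0685), with the number series (mouse numbers in the 300s or 500s) as a covariate (0.116) or among mice numbered in the 500s (0.581). The median log2 fold change of the 9 was -1.09, beside -0.01 over all genes tested. With library size alone in place of TMM, the median over all genes was 0.20, the same count of 7 members was lower, and 2 were higher. Of the 17131 genes tested, 4244 were then lower and 8157 higher. Adding KW6002 to cisplatin raised 5 members and lowered 0, against 28.6% of tested genes higher and 27.2% lower than with cisplatin alone. These 2 comparisons share the cisplatin mice, so their values are set side by side and not correlated.

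**Figure D1:**
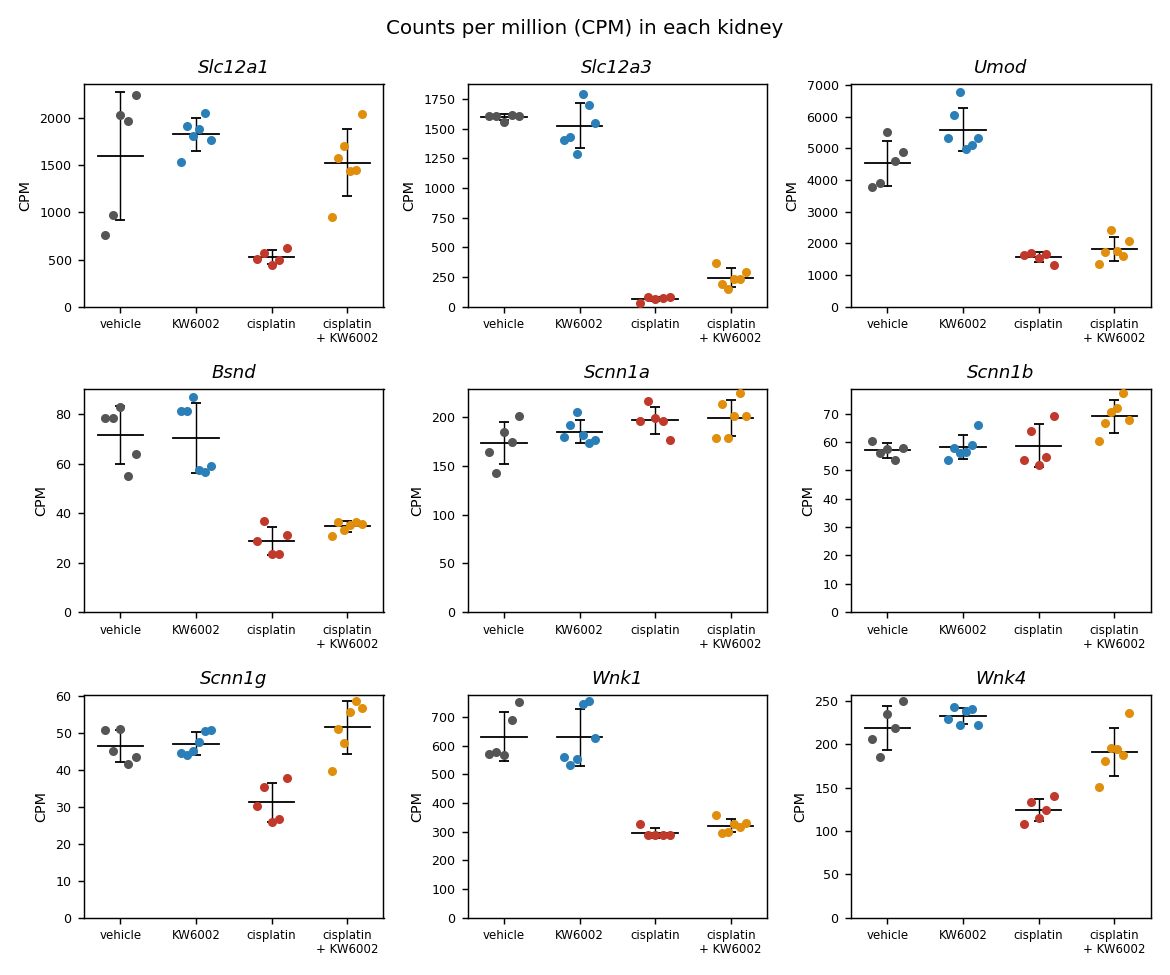
CPM (vertical axes, from 0) of each of the 9 genes in each of the 22 kidneys, by treatment group. Points are mice, horizontal lines are group means and bars are SDs; Slc12a3 falls from a vehicle mean of 1596.7 CPM to 66.1 with cisplatin, while the Scnn1a and Scnn1b points of these groups overlap.

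Slc12a1 encodes NKCC2, the apical cotransporter of the thick ascending limb and the target of loop diuretics. Its level in the vehicle mice was 756, 975, 2036.2, 1968.1 and 2248.5 CPM. In the cisplatin mice it was 502, 568, 443, 494 and 628 CPM. In the co-treated mice it ran from 949 through a median of 1517.5 to 2046.1 CPM. Every cisplatin mouse lay below every vehicle mouse and below every co-treated mouse, and the co-treated range fell inside the vehicle range. Slc12a1 was 3.03-fold lower with cisplatin than with vehicle (log2 fold change -1.60, SE 0.23, adjusted p = 1.88e-06). It was 2.90-fold higher with both drugs than with cisplatin alone (log2 fold change 1.54, SE 0.22, adjusted p = 4.59e-06).

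The co-treated mean of Slc12a1, 1530.7 ± 361 CPM (SD, n = 6), was 95.9% of the vehicle mean, and the difference did not pass the test (log2 fold change -0.06, SE 0.22, adjusted p = 0.824). Its sign depends on which mice are included: it was -0.24 without vehicle mouse 1, and 0.04, 0.03 and 0.09 without vehicle mouse 3, 4 or 5. Among mice numbered in the 500s alone, which leaves 2 vehicle mice, the co-treated level was lower than vehicle (log2 fold change -0.46, adjusted p = 0.0469, edgeR), against a range of adjusted p from 0.0469 to 0.932 over all settings.

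Slc12a3 encodes NCC, the thiazide-sensitive cotransporter of the distal convoluted tubule. The 5 vehicle mice lay close together, at 1605.4, 1603.1, 1553.3, 1612.1 and 1609.5 CPM. The 5 cisplatin mice gave 34.6, 80.3, 61.8, 74.3 and 79.4 CPM. The co-treated mice ran from 147 through a median of 232 to 370 CPM. The 3 groups did not overlap, with the co-treated mice between the others and much nearer to cisplatin. Slc12a3 was 24.2-fold lower with cisplatin (log2 fold change -4.59, SE 0.23, adjusted p = 5.22e-14), the largest fall among the 9 members. With both drugs it was 3.69-fold higher than with cisplatin alone (log2 fold change 1.88, SE 0.20, adjusted p = 5.6e-08) and still 6.55-fold lower than with vehicle (log2 fold change -2.71, SE 0.20, adjusted p = 1.1e-10). The co-treated mean was 15.3% of the vehicle mean, where cisplatin alone left 4.14%.

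Umod encodes uromodulin, the protein that thick ascending limb cells secrete in large amounts into urine. The vehicle mice gave 3767.6, 3917.5, 5518.8, 4591.4 and 4875.8 CPM. The cisplatin mice gave 1648.1, 1706.2, 1532.1, 1660.3 and 1330.3 CPM. The co-treated mice ran from 1334.8 through a median of 1746.7 to 2413.6 CPM. Both cisplatin-treated groups lay wholly below vehicle and overlapped each other. Umod was 2.88-fold lower with cisplatin (log2 fold change -1.53, SE 0.14, adjusted p = 8.75e-10), close in size to the change of Slc12a1. Unlike that of Slc12a1, its difference between the co-treated and cisplatin groups did not pass the test (log2 fold change 0.21, SE 0.13, adjusted p = 0.17), and it was 2.49-fold lower with both drugs than with vehicle (adjusted p = 9.71e-09).

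These 2 transcripts of the same segment therefore stood in different proportion after co-treatment. Within each mouse, the ratio of Slc12a1 to Umod counts was 0.342 ± 0.113 with vehicle (SD, n = 5), 0.331 ± 0.0521 with KW6002 (n = 6) and 0.339 ± 0.0762 with cisplatin (n = 5). With both drugs it was 0.841 ± 0.114 (n = 6). The lowest co-treated ratio, 0.708, lay above the highest in any other group, 0.472. The ratios are a description and were not tested.

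**Figure D2:**
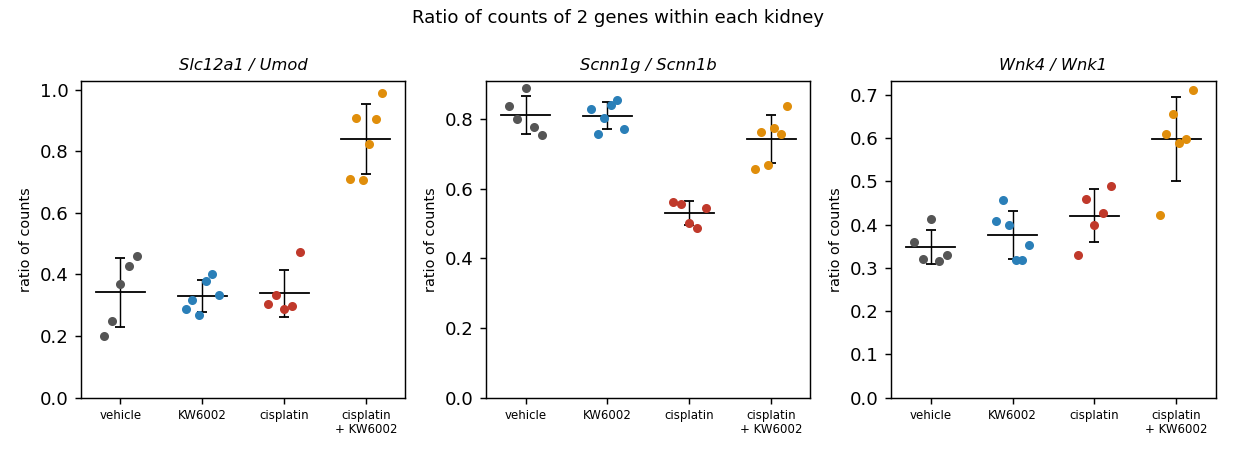
Ratio of the counts of 2 genes within each of the 22 kidneys (vertical axes, from 0), by treatment group, with mice as points, means as lines and SDs as bars. The ratio of Slc12a1 to Umod is between 0.708 and 0.989 in the 6 co-treated mice and at most 0.472 elsewhere, and the ratio of Scnn1g to Scnn1b is lowest in the cisplatin mice.

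The sequence before the start of these 3 genes is shown because they belong to neighbouring segments and responded to different degrees. Of the 9 members, 7 had a promoter among the RefSeq sequences used (build GRCm38.p6, 300 bases per gene), all but Bsnd and Scnn1a. Each is given 5′ to 3′ on the gene's strand up to the outermost annotated start. Capitals mark a match to TATAAA, the TATA box, searched on both strands. The Slc12a1 stretch is chr2:125152350-125152504 (plus strand), that of Umod is chr7:119479283-119479512 (minus strand), and that of Slc12a3 is chr8:94328958-94329200 (plus strand).
Slc12a1: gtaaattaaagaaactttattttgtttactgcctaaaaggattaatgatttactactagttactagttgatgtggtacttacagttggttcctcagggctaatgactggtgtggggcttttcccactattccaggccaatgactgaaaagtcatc
Umod: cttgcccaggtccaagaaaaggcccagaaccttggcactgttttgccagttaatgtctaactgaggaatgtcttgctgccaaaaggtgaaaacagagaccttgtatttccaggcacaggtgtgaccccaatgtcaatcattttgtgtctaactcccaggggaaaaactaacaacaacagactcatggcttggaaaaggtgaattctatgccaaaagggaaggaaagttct
Slc12a3: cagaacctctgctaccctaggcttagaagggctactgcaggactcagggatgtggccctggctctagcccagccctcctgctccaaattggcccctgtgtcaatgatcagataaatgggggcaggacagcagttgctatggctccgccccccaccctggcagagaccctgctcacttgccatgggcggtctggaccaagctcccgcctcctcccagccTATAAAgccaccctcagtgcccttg

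TATAAA was found in 13.6% of 32851 promoters and, among the 7 members, in that of Slc12a3, 32 bases before the RefSeq start. TGTTCT, a half-site of steroid receptors, was found in 19.0% of promoters and in 0 of the 7. A match describes the letters in the window and is not evidence of binding.

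Bsnd encodes barttin, a protein needed for chloride exit from these cells. The vehicle mice gave 78.4, 78.7, 82.8, 55.0 and 64.0 CPM, and the cisplatin mice gave 28.9, 36.8, 23.6, 23.7 and 31.1 CPM. Every cisplatin mouse lay below every vehicle mouse. Bsnd was 2.49-fold lower with cisplatin (log2 fold change -1.31, SE 0.14, adjusted p = 1.65e-08). The co-treated mice ran from 30.8 through a median of 35.5 to 36.5 CPM, inside the upper part of the cisplatin range. The difference between those 2 groups did not pass the test (log2 fold change 0.27, SE 0.13, adjusted p = 0.094), although it passed with the mouse-number series as a covariate (adjusted p = 0.0108), with the replicate block (0.0409), in a fit to the compared groups alone (0.0374), among mice of the 500s (0.0213) and without cisplatin mouse 2 (0.0244). Across all settings its adjusted p ran from 0.0108 to 0.231.

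The WNK kinases also fell with cisplatin and then parted. Wnk1 encodes the kinase whose kidney-specific short form is abundant in the distal convoluted tubule, and the count covers all its forms. It stood at 571, 578, 567, 690 and 754 CPM in the vehicle mice and at 328, 289, 289, 290 and 287 CPM in the cisplatin mice. Wnk4, a kinase of the distal nephron mutated in familial hyperkalaemic hypertension, stood at 206, 185, 235, 219 and 250 CPM with vehicle and at 108, 133, 115, 124 and 140 CPM with cisplatin. Neither gene's groups overlapped. The log2 fold change with cisplatin was -1.09 (SE 0.10, adjusted p = 1.2e-09) for Wnk1 and -0.82 (SE 0.09, adjusted p = 5.61e-08) for Wnk4.

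With both drugs, Wnk4 ran from 151 through a median of 191 to 236 CPM, above every cisplatin mouse. Its log2 fold change against cisplatin alone was 0.62 (SE 0.09, adjusted p = 4.2e-06). Wnk1 ran from 297 through a median of 322 to 357 CPM, overlapping the cisplatin mice, and its change did not pass the test (log2 fold change 0.11, SE 0.09, adjusted p = 0.308). Within each mouse the ratio of Wnk4 to Wnk1 counts was 0.348 ± 0.0402 with vehicle, 0.421 ± 0.0608 with cisplatin and 0.598 ± 0.0973 with both drugs, given as a description.

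ENaC is built from 3 subunits, and their transcripts did not move together. Scnn1g, the gamma subunit, gave 50.7, 45.0, 51.1, 41.6 and 43.5 CPM in the vehicle mice. It gave 30.2, 35.4, 25.9, 26.8 and 37.7 CPM in the cisplatin mice, and from 39.6 through a median of 53.3 to 58.7 CPM in the co-treated mice. Every cisplatin mouse lay below both other groups, and the co-treated mice overlapped vehicle. Scnn1g fell with cisplatin (log2 fold change -0.57, SE 0.10, adjusted p = 4.17e-05) and was higher with both drugs than with cisplatin alone (log2 fold change 0.72, SE 0.10, adjusted p = 2.5e-06).

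Scnn1b, the beta subunit, ran from 53.5 to 60.5 CPM with vehicle, from 51.7 to 69.3 with cisplatin and from 60.2 to 77.3 with both drugs. The cisplatin and vehicle ranges overlapped, and the difference did not pass the test (log2 fold change 0.04, SE 0.08, adjusted p = 0.647). It passed with library size alone (log2 fold change 0.26, adjusted p = 0.00351), and was -0.03 without cisplatin mouse 5. With both drugs Scnn1b was higher than with cisplatin alone (log2 fold change 0.24, SE 0.07, adjusted p = 0.00783) and than with vehicle (log2 fold change 0.28, SE 0.07, adjusted p = 0.00227). Within each mouse the ratio of Scnn1g to Scnn1b counts was 0.813 ± 0.0532 with vehicle, 0.53 ± 0.0333 with cisplatin and 0.744 ± 0.0685 with both drugs.

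Scnn1a, the alpha subunit that the channel cannot do without, ran from 143 to 201 CPM with vehicle and from 177 to 217 CPM with cisplatin. It was the 1 member called higher with cisplatin, just past the threshold (log2 fold change 0.18, SE 0.08, adjusted p = 0.0492). With library size alone it was 0.40 (adjusted p = 0.00011). The ranges overlapped, and the call, lost in the 3 settings named above, was also lost in a fit to the compared groups alone (0.0703) and without a filter (0.0818). It was lost without vehicle mouse 1 (adjusted p = 0.104), 2 (0.176) or 4 (0.069), and without cisplatin mouse 1 (0.0657), 2 (0.133), 3 (0.0768) or 4 (0.0676). Against vehicle, the co-treated level of Scnn1a was also called higher (log2 fold change 0.20, adjusted p = 0.0276, and 0.36 with library size alone, adjusted p = 0.000287), and that call was lost without vehicle mouse 1 (adjusted p = 0.0641) or 2 (0.106) and without co-treated mouse 2 (0.0599) or 5 (0.0742).

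**Figure D3:**
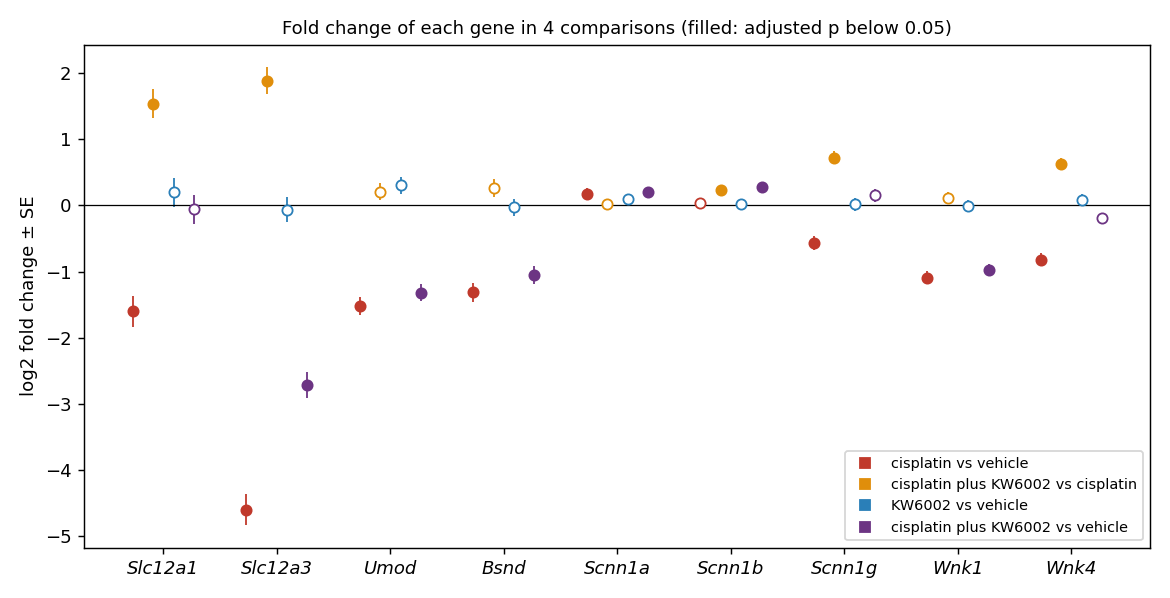
Log2 fold change with its SE (vertical axis) of each of the 9 genes in 4 comparisons, marked by colour, with filled points where the adjusted p was below 0.05. Slc12a1, Slc12a3, Scnn1b, Scnn1g and Wnk4 have filled points above 0 for cisplatin plus KW6002 against cisplatin, and all 9 points for KW6002 against vehicle are open.

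KW6002 alone left no member past the threshold. Against vehicle, 0 of 9 were called by edgeR and 0 of 9 by DESeq2, and 1, Umod, had an unadjusted p below 0.05 (log2 fold change 0.30, adjusted p = 0.361). Over all tested genes, 0.0175% were higher and 0.0% lower in this comparison, and 11.3% had an unadjusted p below 0.05, so 1 of 9 is near the background. The Slc12a1 level in the KW6002 mice ran from 1534.9 to 2052.6 CPM, inside the upper part of the vehicle range, and that of Slc12a3 ran from 1284.8 to 1792.0 CPM. Umod ran from 4975.6 through a median of 5331.4 to 6778.1 CPM, overlapping the vehicle mice. The KW6002 mean was 70.5 ± 14.1 CPM for Bsnd, 630 ± 98.6 for Wnk1 and 233 ± 9.57 for Wnk4 (SD, n = 6). For the ENaC subunits it was 185 ± 11.8 CPM for Scnn1a, 58.2 ± 4.19 for Scnn1b and 47.1 ± 3.03 for Scnn1g, and every member's range overlapped vehicle.

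Between co-treated and vehicle mice, 4 members were lower (Slc12a3, Umod, Bsnd and Wnk1) and 2 were higher (Scnn1a and Scnn1b), against 29.9% of tested genes lower and 29.8% higher. The Scnn1a call was lost with the number series as a covariate (adjusted p = 0.0786), in a fit to the compared groups alone (0.0644) and among mice numbered in the 500s (0.448). Over all genes this comparison had a median of -0.002 with TMM. Scaled by library size only, the median was 0.155, 67.7% of calls were higher, and 4 members were lower and 3 higher. Of the 17131 genes tested, 3525 were then lower and 7394 higher. The ranges of Slc12a3, Umod, Bsnd and Wnk1 did not overlap vehicle. How many of all tested genes had such ranges was not counted. Bsnd was at 48.3% of its vehicle mean and Wnk1 at 50.8%. Wnk4, at 87.2%, did not pass (log2 fold change -0.20, SE 0.09, adjusted p = 0.0604), but it passed among mice numbered in the 500s (adjusted p = 0.0489), without vehicle mouse 2 (0.0204) and without co-treated mouse 6 (0.00726). Wnk4 also passed with the replicate block (adjusted p = 0.0225), with the number series as a covariate (0.0451) and with at least 10 counts per library (0.0458). It did not pass by DESeq2 (adjusted p = 0.0712) or with library size alone (log2 fold change -0.04, adjusted p = 0.664). Scnn1g did not pass (log2 fold change 0.15, adjusted p = 0.199), but it passed without co-treated mouse 1 (0.0475) and with library size alone (0.00853).

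An interaction term tested whether adding KW6002 changed a gene by a different amount in cisplatin-treated than in other mice. It was higher for 4 members and lower for 0, against 22.8% of tested genes higher and 19.9% lower. The 4 were Slc12a3 (log2 difference 1.95, SE 0.27, adjusted p = 5.96e-06), Slc12a1 (1.34, SE 0.31, adjusted p = 0.00124), Scnn1g (0.70, SE 0.14, adjusted p = 0.000367) and Wnk4 (0.53, SE 0.13, adjusted p = 0.00166). The value for Umod was -0.10 (SE 0.18, adjusted p = 0.699). That for Scnn1b was 0.21 (adjusted p = 0.104), and it passed without cisplatin mouse 5 (0.0197) or co-treated mouse 1 (0.0496). Among mice of the 500s the values were 1.83 for Slc12a3 (adjusted p = 0.0013), 1.69 for Slc12a1 (9.53e-05), 0.51 for Scnn1g (0.0439) and 0.63 for Wnk4 (0.00657). With library size alone, 4 members were higher and 0 lower for the interaction. Over all 17131 genes tested, 3041 were then higher and 4107 lower. The share of its calls that were higher was 42.5%, beside 53.4% with TMM.

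Mice were numbered in 2 series. The 300s held 6 control mice, 3 given vehicle and 3 given KW6002, and the 500s held the remaining 16, every cisplatin-treated mouse among them. Some members differed between these number series among the controls. Bsnd ran from 78.4 to 87.0 CPM in the 6 control mice of the 300s and from 55.0 to 64.0 CPM in the 5 of the 500s. Wnk1 went the other way, at most 578 CPM in the 300s and from 627 to 755 CPM in the 500s. Neither gene's control series overlapped. How many of all tested genes differed in this way between the control series was not counted. Within the 500s alone, the log2 fold change with cisplatin was -1.05 for Bsnd (adjusted p = 9.74e-07), -1.29 for Wnk1 (adjusted p = 7.64e-10), -2.005 for Slc12a1 (adjusted p = 3.89e-08) and -4.61 for Slc12a3 (adjusted p = 2.68e-10). It was -1.59 for Umod (adjusted p = 6.88e-08), -0.45 for Scnn1g (adjusted p = 0.00961) and -0.92 for Wnk4 (adjusted p = 3.17e-06). The 7 members called lower with cisplatin over all mice were called lower within the 500s too.

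The genes that work beside these members were described from 6 lists with 46 genes, all of them tested. With cisplatin 28 of the 46 were lower and 9 higher, beside 35.9% and 34.6% of all tested genes, with a median log2 fold change of -0.58. With both drugs, 25 were higher and 6 lower than with cisplatin alone, beside 28.6% and 27.2%, with a median of 0.28 beside 0.005 over all genes tested. Against vehicle, the co-treated mice had 25 of the 46 lower and 13 higher, beside 29.9% and 29.8%. With library size alone 20 were lower and 16 higher, beside 3525 lower and 7394 higher of the 17131 tested genes. KW6002 alone left 0 of 46 past the threshold by edgeR, 6 with an unadjusted p below 0.05, near the 11.3% of all tested genes, and 2 by DESeq2, which called 46 genes higher and 53 lower of 18199. The 2 were Sgk1 (log2 fold change 1.15, adjusted p = 0.00679) and Tsc22d3 (0.83, adjusted p = 0.000796). By edgeR the same 2 genes passed without vehicle mouse 3 (adjusted p = 0.0177 and 0.0233) and without KW6002 mouse 1 (0.0472 and 0.0463). They also passed with the number series as a covariate (0.0337 and 0.0231), and Sgk1 passed among mice of the 500s (0.0458). With the replicate block neither passed.

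Channels and claudins carry the other ions of the loop and distal tubule. Of the 8 genes in this list, 6 were lower and 1 higher with cisplatin, where 35.9% of all tested genes were lower and 34.6% higher. On adding KW6002, 7 were higher and 0 lower, where 28.6% of all tested genes were higher and 27.2% lower. Kcnj1, the apical potassium channel ROMK, had log2 fold changes of -1.60 (adjusted p = 1.37e-11) and 1.01 (adjusted p = 4.84e-08) in these comparisons. Kcnj10, a basolateral potassium channel, had -1.52 and 1.03. Cldn16, a claudin of the paracellular magnesium and calcium route, had -1.20 and 1.44. Cldn19, its partner, was the 1 gene of the list that was higher with cisplatin (log2 fold change 0.61, adjusted p = 0.0136).

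Among 9 partners of the WNK kinases, 4 were lower and 3 higher with cisplatin, shares near the 35.9% and 34.6% of all tested genes. On adding KW6002, 4 were higher and 1 lower, beside 28.6% and 27.2%. Klhl3, the adaptor that hands WNK kinases to degradation, had a log2 fold change of -1.87 (adjusted p = 5.08e-14), and its change on adding KW6002, 0.15, did not pass (adjusted p = 0.159). Cul3, the ubiquitin ligase scaffold that works with it, had -0.44 and 0.35. The downstream kinases were represented by Oxsr1 (OSR1) at 0.28 (adjusted p = 1.77e-05) and Stk39 (SPAK) at 0.13 (adjusted p = 0.272) with cisplatin.

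Of 11 genes that control ENaC, 5 were lower and 4 higher with cisplatin, shares near the 35.9% and 34.6% of all tested genes. On adding KW6002, 6 were higher and 2 lower, beside 28.6% and 27.2% of all tested genes. Nr3c2, the mineralocorticoid receptor, had log2 fold changes of -0.67 and 0.31, and Hsd11b2, the enzyme that shields it from glucocorticoids, had -0.91 and 0.46. Sgk1, the aldosterone-induced kinase, rose by contrast with cisplatin (log2 fold change 1.75, adjusted p = 1.72e-06) and rose further on adding KW6002 (0.57, adjusted p = 0.043). Tsc22d3, another steroid-induced gene, had 1.29 and -0.53. The channel-activating proteases split, with Prss8 at -1.04 and St14 at 1.56 with cisplatin.

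A list of 9 other apical transporters held carriers of sodium along the nephron and Slc26a4, the chloride and bicarbonate exchanger pendrin, which carries no sodium. With cisplatin 7 of the 9 were lower and 0 higher, beside 35.9% and 34.6% of all tested genes. On adding KW6002, 6 were higher and 1 lower, beside 28.6% and 27.2%. Several of these genes belong to the proximal tubule, and 3 (Slc34a1, Slc5a2 and Slc5a12) are also among its 10 markers. Of those markers, 10 were lower with cisplatin (median log2 fold change -3.17) and 9 were higher on adding KW6002 (median 1.85). Whether the change in the list follows from that of the proximal tubule was not tested. Slc9a3, the sodium-proton exchanger NHE3, had log2 fold changes of -1.65 and 1.07 in these comparisons. Of the other 7 SLC12 cotransporters, 4 were lower and 1 higher with cisplatin, beside 35.9% and 34.6% of all tested genes. On adding KW6002, 2 were lower and 1 higher, beside 27.2% and 28.6%, with a median of -0.12. Slc12a4, the potassium-chloride cotransporter KCC1, was higher with cisplatin than with vehicle (log2 fold change 2.09, adjusted p = 1.09e-14) and lower on adding KW6002 (-0.80, adjusted p = 6.18e-08). Of 2 uromodulin partners, 2 were lower and 0 higher with cisplatin, beside 35.9% and 34.6% of all tested genes. On adding KW6002, 1 was higher and 0 lower, beside 28.6% and 27.2%. Hpn, the protease hepsin that releases uromodulin, fell with cisplatin (log2 fold change -0.71, adjusted p = 4.73e-09) and rose on adding KW6002 (0.74, adjusted p = 5.64e-09).

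**Figure D4:**
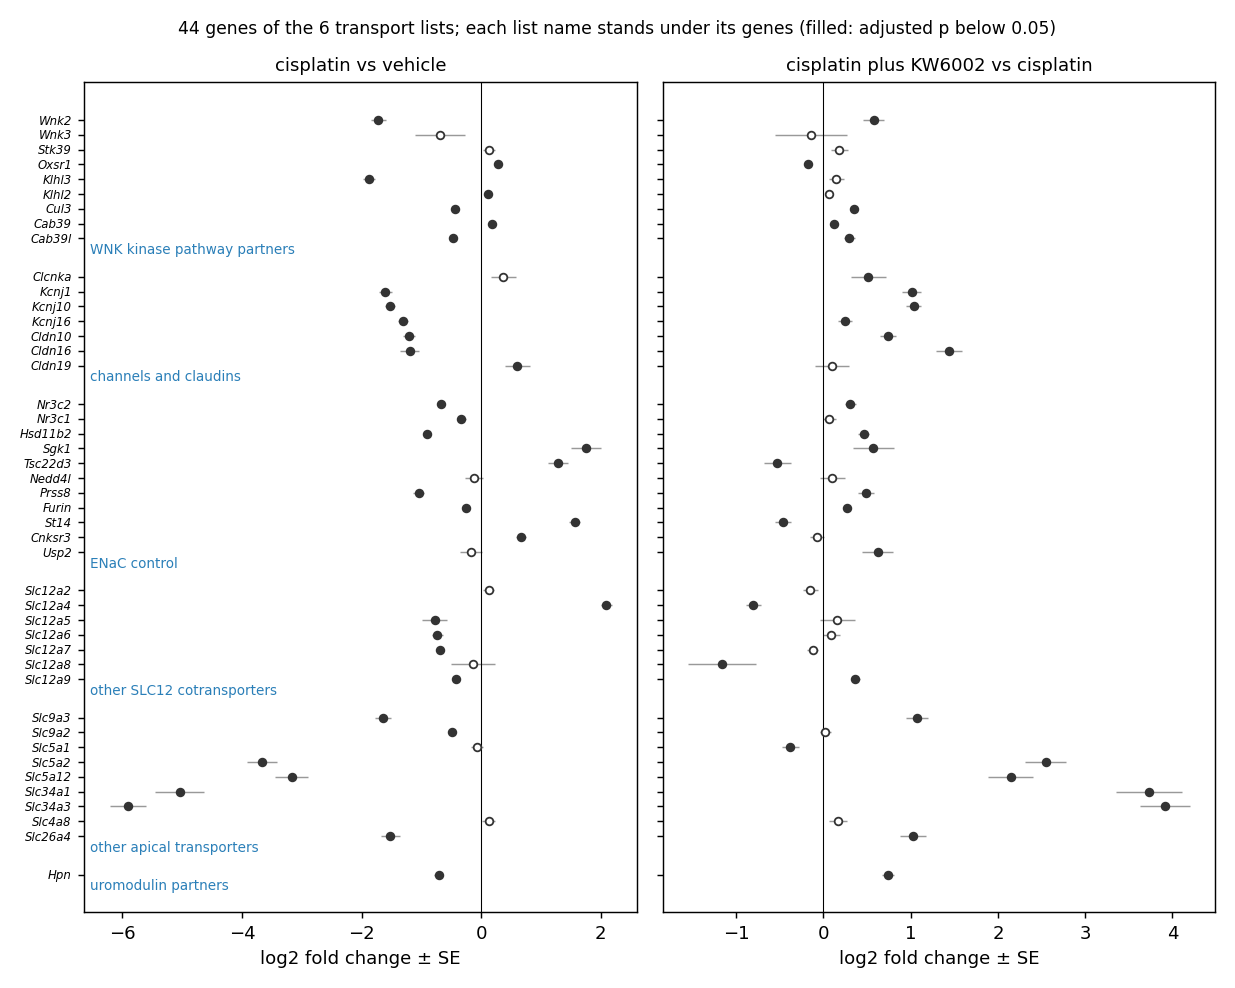
Log2 fold change with its SE (horizontal axes) of 44 of the 46 genes of the 6 transport lists, with cisplatin against vehicle on the left and cisplatin plus KW6002 against cisplatin on the right, filled where the adjusted p was below 0.05. On the left 26 filled points lie below 0 and 9 above, and on the right 24 lie above 0 and 6 below.

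Segment markers were summed in each mouse, and the lists include some of the members, so the sums partly restate the member levels. Markers of the thick ascending limb (8 genes, Umod the most abundant) summed to 9027.6 ± 1894.1 CPM with vehicle (SD, n = 5), 2344.5 ± 143 with cisplatin and 3971.2 ± 872 with both drugs. Without Umod, the other 7, Slc12a1 among them, summed to 4493.4 ± 1259.1, 769 ± 93.4 and 2151.2 ± 530 CPM in the same groups. Markers of the distal convoluted tubule (6 genes, Slc12a3 the most abundant) summed to 2101 ± 95.8, 166 ± 43.5 and 477 ± 105 CPM. Without Slc12a3, the other 5 summed to 504 ± 81, 99.8 ± 26.9 and 234 ± 28.1 CPM. Collecting duct principal cell markers (8 genes, Aqp2 the most abundant) summed to 641 ± 143, 848 ± 124 and 897 ± 140 CPM. Without Aqp2, the other 7 summed to 481 ± 70 CPM with vehicle, 421 ± 55.4 with cisplatin and 446 ± 64.9 with both drugs, with ranges that overlapped, so the higher sum came from Aqp2 (log2 fold change 1.41 with cisplatin, adjusted p = 2.46e-05). With the members themselves left out, 5 of 6 thick ascending limb genes and 5 of 5 distal convoluted tubule genes were lower with cisplatin, beside 35.9% of all tested genes, with medians of -1.60 and -2.48 on the log2 scale. On adding KW6002, 5 and 3 were higher, beside 28.6% of all tested genes. Of the 6 principal cell genes, 1 was lower and 2 were higher with cisplatin, with a median of -0.07, beside 35.9% and 34.6% of all tested genes.

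**Figure D5:**
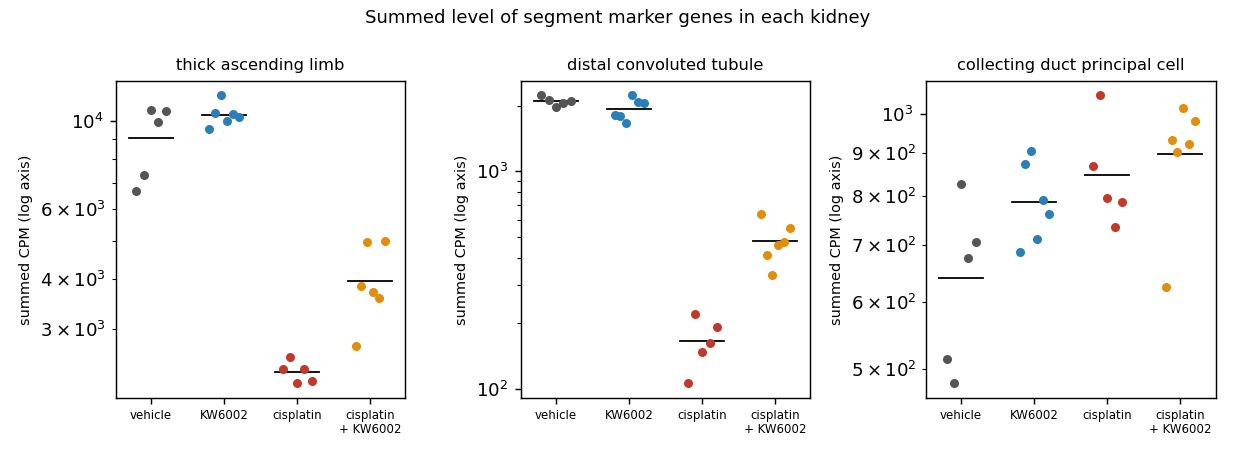
Summed CPM (vertical axes, log scale) of the marker genes of 3 nephron segments in each of the 22 kidneys, by treatment group, with mice as points and means as lines. The distal convoluted tubule sum, which includes Slc12a3, falls from a mean of 2101 CPM with vehicle to 166 with cisplatin. The principal cell sum is 641 with vehicle and 848 with cisplatin, a difference carried by Aqp2.

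Markers of other tissue also moved between the groups. Fibroblast markers (5 genes, Dcn the most abundant) summed to 299 ± 88.4 CPM with vehicle, 869 ± 92.6 with cisplatin and 451 ± 118 with both drugs. With cisplatin 5 of the 5 were higher, beside 34.6% of all tested genes, and on adding KW6002 4 were lower, beside 27.2%. Fat markers (6 genes, Fabp4 the most abundant) summed to 582, 1045.2, 250, 304 and 137 CPM in the vehicle mice. They summed to 348, 340, 622, 641 and 377 CPM in the cisplatin mice and ran from 38.4 through a median of 95.5 to 230 CPM in the co-treated mice. Vehicle mice 1 and 2, with the lowest Slc12a1 levels of their group, had its highest fat sums. The same mice had its highest fibroblast sums (398 and 377 CPM) and macrophage sums (287 and 267 CPM). Their sums were the lowest of the group for thick ascending limb (6678.3 and 7302.7 CPM) and principal cell markers (514 and 481 CPM). On adding KW6002 to cisplatin, 5 of the 6 fat genes were lower and 0 higher, beside 27.2% and 28.6% of all tested genes. The part of the fibroblast, fat and macrophage markers in the results was not tested.

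Adrenal markers (4 genes, Star the most abundant) summed to at most 2.7 CPM in every other mouse and to 64.4 CPM in co-treated mouse 6. The median of Cyp11b1 was 0 in the vehicle, KW6002 and cisplatin groups, and 3 of the 4 genes had too few counts to be tested. Without co-treated mouse 6, the log2 fold change on adding KW6002 to cisplatin was 1.43 for Slc12a1 (adjusted p = 1.66e-05), 1.82 for Slc12a3 (adjusted p = 2.21e-07), 0.69 for Scnn1g (adjusted p = 1.01e-05), 0.55 for Wnk4 (adjusted p = 8.67e-06) and 0.24 for Scnn1b (adjusted p = 0.0113).

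The genes most like each member over the 22 libraries were taken as those with the smallest root mean square difference in centred log2 CPM among 10430 genes. For Slc12a1 they were Ptger3 (0.198), Ppp1r1a (0.213) and Pcsk6 (0.216). For Slc12a3 they were Aspdh (0.349), Ugt2b38 (0.361) and C1qtnf3 (0.366), and for Umod Gcgr (0.177), Paqr7 (0.238) and Tmtc4 (0.239). For Bsnd they were Rab11fip4 (0.118), Celsr2 (0.188) and Mettl8 (0.195). For Wnk1 they were Pi4ka (0.108), Trim7 (0.133) and Zbtb20 (0.134), and for Wnk4 Immt (0.106), Rnf5 (0.115) and Slc1a1 (0.117). For Scnn1a they were Sipa1l3 (0.0887), Caskin2 (0.0933) and Arf1 (0.099), and for Scnn1b Gtf3c2 (0.101), Wdr83 (0.101) and Mrpl17 (0.103). For Scnn1g, Pcbp4 (0.144) and Spr (0.152) were among the nearest 3. No member was among the 3 nearest genes of another. These differences are to be read beside each member's own spread. The root mean square about its mean was 0.143 for Scnn1a and 0.158 for Scnn1b, beside 1.94 for Slc12a3. A small difference for a member that varied little is therefore not a closer likeness.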

How the data were processed

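Raw counts per gene were deposited by the authors, who prepared stranded polyA libraries, aligned uniquely mapping reads to mm10 with STAR and counted them with HTSeq 0.6.1p1 in union mode. The count table held 32858 genes and 66 unnamed empty columns that were not used. Symbols came from GENCODE M21. Counts were filtered with filterByExpr, scaled by TMM and tested in edgeR 4.0.16 (R 4.3.3) with 1 mean per group and no covariate, and the steps were tested on simulated data. CPM uses the TMM-scaled totals, and log2 CPM for likeness used a prior count of 2 and an average log2 CPM of at least 3. The biological coefficient of variation was 0.129. No pair of libraries within a group differed by as little as sampling noise (chi-square per degree of freedom 2.94 to 49.58).

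Genes were named by a rule: all 9 members, list genes by their role with the counts of their list, and genes among the 3 most like each member (root mean square difference, members included). Members and lists were chosen with earlier results of these data known. The markers named, such as Aqp2 and Cyp11b1, fall outside the rule and were chosen after their values were seen. Alternatives were DESeq2 1.42.0, relative log expression factors, scaling by library size, an unfiltered table, a minimum of 10 counts per library, fits to the compared groups alone, blocking on replicate number, the mouse-number series as a covariate, only mice of the 500s, a stricter threshold, and each library left out in turn. For the pathway lists these alternatives were added after seeing the data.

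Marker lists without a value above were summed in the same way. Vehicle, cisplatin and co-treated means were 516, 310 and 454 CPM for intercalated cells, 38706.4, 2847.3 and 9242.9 CPM for proximal tubule, 531, 506 and 484 CPM for podocytes, 503, 545 and 485 CPM for endothelium, 205, 216 and 139 CPM for macrophages, and 5.49, 1.71 and 2.83 CPM for T cells.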

Additional observations from a re-analysis of the deposited data

Results flagged for a closer look

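Of 36 groups of values (9 genes in 4 groups), 2 held a mouse far from the others relative to the spread of its group. Chance gives about 1 in 20, so 2 of 36 is near what chance gives. Slc12a3 was lowest in vehicle mouse 3, at 1553.3 CPM, where the other vehicle mice lay close together, from 1603.1 to 1612.1 CPM. Wnk1 was highest among the cisplatin mice in mouse 1, at 328 CPM.

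The effect of KW6002 differed between mice with and without cisplatin, by the interaction test of the edgeR fit, for 4 of the 9 genes. The same test called 42.7% of all tested genes, a share near that of the members. The log2 difference was 1.34 for Slc12a1 (adjusted p = 0.00124) and 1.95 for Slc12a3 (adjusted p = 5.96e-06). It was 0.70 for Scnn1g (adjusted p = 0.000367) and 0.53 for Wnk4 (adjusted p = 0.00166).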

How the results depend on the processing

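Of 981 values under alternatives for single members, 911 kept their direction and side of the threshold, 19 lost the call, 17 gained it and 34 changed sign. Causes were not tested, except that the stricter threshold lowers counts by construction.

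With the stricter threshold (adjusted p 0.01, and 1 on the log2 scale), the members and pathway genes called were 5 and 19 with cisplatin, 2 and 9 on adding KW6002 to cisplatin, 3 and 11 for both drugs against vehicle, and 2 and 10 for the interaction. At that threshold, of all 17131 tested genes, 2069 were higher and 2068 lower with cisplatin, and 796 and 970 on adding KW6002. The numbers higher and lower were 999 and 1301 for both drugs against vehicle, and 727 and 742 for the interaction. For KW6002 alone, pathway genes called were 2 by DESeq2, 2 with the number series as a covariate and 1 among mice of the 500s. Leaving out each library in turn gave 7 to 8 members with cisplatin, 5 to 6 on adding KW6002, 5 to 7 for both drugs against vehicle and 4 to 5 for the interaction. For KW6002 alone it gave 0 members and 0 to 2 pathway genes. The share of all tested genes called without each library is not given here.

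The labels do not say that replicate numbers pair mice. Across genes, which are not independent, deviations from the group mean correlated between mice of the same number with r from -0.153 to 0.405 for vehicle against KW6002 (mean 0.147, beside -0.029 for different numbers), from -0.0431 to 0.309 for KW6002 against co-treated, and from -0.157 to 0.0768 for cisplatin against co-treated mice. In the other pairs of groups the highest was 0.116. Vehicle and KW6002 mice of the same number were also of the same number series. Between these 2 groups the mean r was 0.108 within a series and -0.107 between series. With the number as a replicate block, members called were 7 with cisplatin, 6 on adding KW6002, 0 for KW6002 alone, 7 for both drugs against vehicle and 4 for the interaction, and Scnn1g with KW6002 alone was -0.012. The share of all tested genes called in that fit is not given here, so these counts only show how the member calls moved.

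Signs changed among mice of the 500s for KW6002 alone, in Slc12a1 (-0.15), Slc12a3 (0.058), Scnn1a (-0.08) and Wnk4 (-0.005), and for the interaction in Umod (0.095) and Scnn1a (0.11). With library size alone they changed for Slc12a1, both drugs against vehicle (0.095), Scnn1a on adding KW6002 (-0.037) and Wnk1 with KW6002 alone (0.007). With the number series as a covariate, Bsnd with KW6002 alone was 0.012.

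With single libraries left out, signs changed over these ranges: Slc12a1, both drugs against vehicle, -0.239 to 0.095; Scnn1a on adding KW6002, -0.016 to 0.06; Scnn1b with cisplatin, -0.027 to 0.084. For KW6002 alone, Bsnd ran from -0.107 to 0.031, Scnn1b from -0.011 to 0.05, Scnn1g from -0.016 to 0.058 and Wnk1 from -0.064 to 0.066. No sign change passed the threshold.

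With library size alone, 65.8% of calls with cisplatin were higher, beside 49.1% with TMM. On adding KW6002 to cisplatin the share was 42.9%, beside 51.2% with TMM, and 5 members were higher and 0 lower. Of the 17131 genes tested, 4091 were then higher and 5435 lower. The interaction could not be run on only the groups compared, since it uses all 4. The counts of the members were all at least 886, and whether depth limited their calls was not tested.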
